A study of Mus musculus with 9 samples.

Results

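The 10 genes described here encode the core of the basement membrane, the thin sheet of matrix under epithelia and endothelia and around muscle and fat cells. They were taken by symbol from a table of 19240 mouse genes and are the type IV collagen chains Col4a1, Col4a2 and Col4a5, the type XVIII collagen chain Col18a1, the laminin chains Lama4, Lamb1 and Lamc1, the nidogens Nid1 and Nid2, and Hspg2, which encodes perlecan. All 10 were found, and all 10 passed the filter on low values. Gene expression had been measured by RNA-seq in 9 libraries, 3 in each of 3 groups, to ask how cells carrying S100A8 constructs differ when a single residue of that protein is mutated. Neutrophils and monocytes contain much S100A8, which binds calcium. OEA8_69 cells carried a construct mutated at residue 69, OEA8_67 cells a construct mutated at residue 67, and OEA8_Ctrl is labelled as the overexpression control.

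Every group thus came from cells transduced for overexpression, by lentivirus and with puromycin selection according to the study's methods. Whether OEA8_Ctrl received unmutated S100A8 or an empty vector is not told by the labels, although the study speaks of its reference cells as overexpressing S100A8. The labels name the cells hematopoietic stem cells, whereas the study's results name mouse embryonic fibroblasts, mesenchymal cells grown from embryos, for these constructs. Its methods describe transduction of both cell types. All 15 fibroblast markers examined were at 1 FPKM or more, with a median of 215 FPKM, where FPKM stands for a fragment count divided by transcript length and by the library's mapped fragments. Of 13 hematopoietic stem and myeloid markers in the table, 5 reached 1 FPKM, among them Cd34 (29.3 to 70.3 FPKM), Ly6a (113 to 221 FPKM) and Gata2 (39.7 to 48.3 FPKM), while Ptprc and Kit did not exceed 0.03 FPKM in any library and Gata1 was at 0 in all 9. Some markers of that list were thus present, but Ptprc, Kit and Gata1 were at or near 0, while every fibroblast marker examined was expressed. S100a8 itself had levels of 3.75, 6.24 and 5.44 FPKM in OEA8_69, of 5.95, 4.54 and 6.24 FPKM in OEA8_67, against of 4.10, 3.98 and 6.0 FPKM in OEA8_Ctrl. These ranges overlapped, and S100a8 ranked above only 21.8% to 32.8% of tested genes. Separate cultures per library are not stated, and p-values below reflect no more than library-to-library spread, possibly technical.

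In a basement membrane, laminin trimers bind cell surface receptors and polymerize into a first network, and type IV collagen trimers form another that is crosslinked covalently and gives the sheet its strength. Nidogens and perlecan connect these networks. Fibroblasts secrete many of these proteins, and the type IV chains made from Col4a1 and Col4a2 occur in nearly every basement membrane. Type XVIII collagen carries heparan sulfate chains, and its end fragment is known as endostatin.

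Col4a1 and Col4a2 lie next to each other on chromosome 8 in opposite orientation, and they are shown first because they moved together in every comparison below. In the GRCm38 annotation Col4a1 (Entrez 12826) occupies chr8:11198423-11312826 on the minus strand with 52 exons in its longest transcript, and Col4a2 (Entrez 12827) occupies chr8:11312805-11449287 on the plus strand with 48 exons. The RefSeq start of Col4a1 at position 11312826 lies past that of Col4a2 at position 11312805, so that the outermost 22 bases of both genes are the same DNA read in opposite directions. The plus strand over this overlap with 4 bases on each side, chr8:11312801-11312830 (GRCm38.p6, from RefSeq), reads as follows, with a GC box (GGGCGG) in capitals.
Col4a1 and Col4a2 shared start: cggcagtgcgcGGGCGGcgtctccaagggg
The GC content of these 30 bases was 80.0%. Col4a5 on the X chromosome is also a member of a head-to-head pair, with Col4a6, but their RefSeq starts are separated by 1342 bases. The stretch before Col4a5, chrX:141475169-141475384 on the plus strand (GRCm38.p6, from RefSeq), is shown as that of the remaining type IV gene of the 10, and its CCAAT motif is in capitals.
Col4a5 upstream: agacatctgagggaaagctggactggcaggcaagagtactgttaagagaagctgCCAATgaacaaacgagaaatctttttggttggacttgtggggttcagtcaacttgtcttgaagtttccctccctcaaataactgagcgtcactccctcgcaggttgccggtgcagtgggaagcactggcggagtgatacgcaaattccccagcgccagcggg
The GC content here was 52.3%. This stretch is longer than the 30 bases above and ends before the gene, so the GC contents are not of like stretches. RefSeq promoter windows, which run from 250 bases before to 50 bases after a start, were matched for 7 of the 10 genes (8 windows, since Col18a1 has 2 starts 52825 bases apart), and Lama4, Lamc1 and Nid2 had none. Windows of Col4a1, Col4a2 and Lamb1 overlapped a window on the other strand, as did 11.9% of 27025 genes with a window. The GC content of the whole window was 74.0% for Col4a1, 73.7% for Col4a2 and 52.7% for Col4a5. Searched on both strands, the GC box GGGCGG occurred in all matched windows except that of the inner Col18a1 start, and in 35.7% of 32851 windows in the table. The GC box of the Col4a5 window lies outside the stretch printed above. CCAAT was present in 1 copy in the windows of Col4a1, Col4a2, Col4a5, Lamb1, Nid1 and the outer Col18a1 start, against 37.4% of all windows. TATAAA was in none of the 8 windows and in 13.6% of all windows. Such matches describe the letters of a window only.

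Before the comparisons, 1 library has to be set apart. OEA8_Ctrl replicate 3 was below both other OEA8_Ctrl libraries for 9 of the 10 basement membrane genes, the exception being Col18a1, and the median difference was -0.15 on the log2(FPKM + 1) scale. Such a count was not particular to this library. OEA8_67 replicate 3 was below both others of its group for 9 of the 10, and OEA8_69 replicate 2 for 7. In OEA8_Ctrl replicate 3 the difference followed transcript length. This library was below both others for 39.3% of all tested genes, for 83.4% of the longest 10% (from 6810 bases) and for 9.71% of the shortest 10% (up to 1447 bases). The longest transcripts of the 10 genes measure between 4876 bases for Nid2 and 14187 bases for Hspg2, and those of Lamc1 and Hspg2 fall within the longest 10%. The gap between the longest and the shortest 10% of genes was taken for each library against the rest of its own group. It lay between -0.09 and 0.05 on the log2 scale in the mutant libraries, against -0.33 in OEA8_Ctrl replicate 3. OEA8_Ctrl replicates 1 and 2 had 0.17 each, but were set against a mean that includes replicate 3. The origin of the shift in OEA8_Ctrl replicate 3 was not tested. Comparisons with OEA8_Ctrl are given with and without this library where that changes a call. Correlations of log2(FPKM + 1) over all tested genes lay between 0.995 and 0.997 within groups and between 0.991 and 0.996 across groups. FPKM summed to between 469909 and 501342 in a library. The sequencing depth is unknown from this table.

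The 10 genes covered a wide range of levels. FPKM values are per length, which allows levels to be set side by side. Averaged over the 9 libraries, Col4a1 had 199 FPKM and Col4a2 had 180 FPKM, above 97.1% and 96.8% of the tested genes. Nid1 followed with 135 FPKM and Lamb1 with 97.8 FPKM. Lama4 (67.7 FPKM), Lamc1 (65.1 FPKM) and Hspg2 (61.7 FPKM) formed a middle group whose means differed by less than the spread of Hspg2 over OEA8_Ctrl libraries (SD 7.49 FPKM, n = 3). Col4a5 (23.5 FPKM), Nid2 (18.6 FPKM) and Col18a1 (11.3 FPKM) were lowest, and Col18a1 lay near the middle of all tested genes, 49.5% of which were below it. The type IV chains for the common network were thus present at several times the level of Col4a5.

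**Figure D1:**
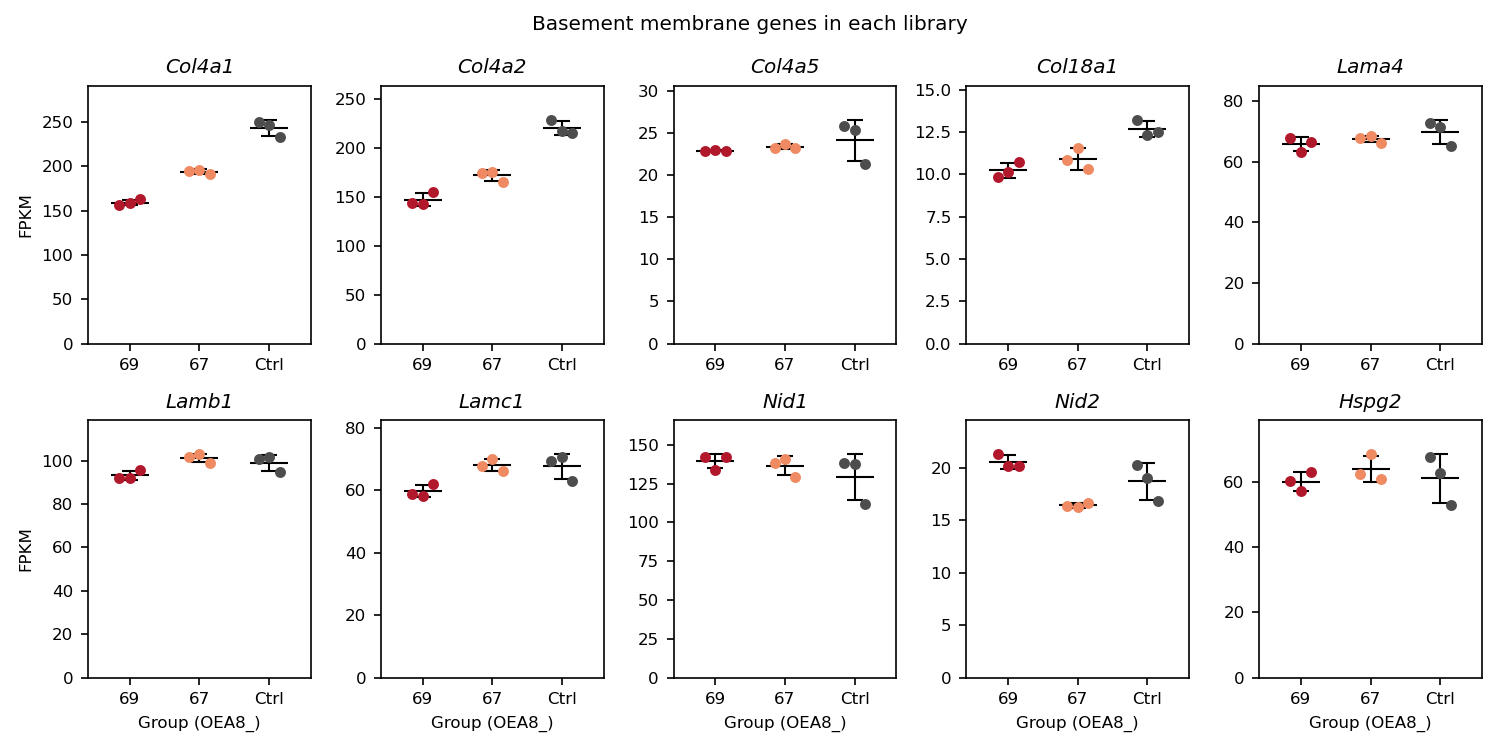
Level in FPKM (y axis, from 0) of the 10 basement membrane genes in the 9 libraries, by group from OEA8_69 through OEA8_67 to OEA8_Ctrl (x axis). Points are libraries in replicate order, and black bars give the mean and SD of 3 libraries. Col4a1 and Col4a2 form 3 separate levels, while the third OEA8_Ctrl point is the lowest of its group in every panel except that of Col18a1.

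Differences between groups were tested with limma on log2(FPKM + 1) over 12012 genes, with p-values adjusted over all of them by the Benjamini-Hochberg method, and a gene with an adjusted p under 0.05 was called. In OEA8_69 against OEA8_Ctrl, 4 of the 10 genes fell (Col4a1, Col4a2, Col18a1 and Lamc1), none rose and 6 were not called. Of all tested genes 9.79% were called in this comparison, 5.24% lower and 4.55% higher. In OEA8_67 against OEA8_Ctrl, 3 fell (Col4a1, Col4a2 and Col18a1), none rose and 7 were not called, while 7.88% of all tested genes were called, 4.66% lower and 3.21% higher. With no adjustment, 4 of the 10 were lower and 0 higher at limma p under 0.05 in each of these comparisons, where 11.2% of all tested genes were lower and 13.9% higher in OEA8_69, and 11.1% lower and 13.6% higher in OEA8_67. Between the mutants these unadjusted shares were 8.74% lower and 9.97% higher. In OEA8_69 against OEA8_67, 2 fell (Col4a1 and Col4a2), 1 rose (Nid2) and 7 were not called, and of all tested genes 3.16% were called, 1.27% lower and 1.89% higher. The median log2 fold change of the 10 genes was -0.09 in OEA8_69 against OEA8_Ctrl, where that of all tested genes was 0.02. It was -0.04 in OEA8_67 against OEA8_Ctrl, beside 0.02 over all tested genes, and -0.09 in OEA8_69 against OEA8_67, beside -0.0019. Without OEA8_Ctrl replicate 3, 7 of the 10 fell in OEA8_69 against OEA8_Ctrl (6.96% of all tested genes were then called lower and 7.92% higher), and 3 fell in OEA8_67 (4.1% lower and 3.5% higher), with Nid2 in place of Col18a1. In OEA8_69 against OEA8_67, 4 then fell and 1 rose (3.71% lower and 4.92% higher). Both comparisons with OEA8_Ctrl use the same 3 control libraries and are not independent of each other.

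Col4a1 encodes the α1 chain of type IV collagen, which joins with the α2 chain in the most widespread type IV trimer. Its level was 156, 159 and 163 FPKM in OEA8_69, 195, 196 and 191 FPKM in OEA8_67, against 250, 247 and 233 FPKM in OEA8_Ctrl. The 3 groups did not overlap, with every OEA8_69 library lowest and every OEA8_Ctrl library highest. In OEA8_69, Col4a1 averaged 159 ± 3.24 FPKM and in OEA8_Ctrl 243 ± 9.39 FPKM (SD, n = 3 each), a fall by 34.6% (log2 fold change -0.61 ± 0.041 SE, limma adjusted p = 1.5e-06). In OEA8_67 the mean was 194 ± 2.65 FPKM (SD, n = 3), which is 20.3% under OEA8_Ctrl (log2 fold change -0.32 ± 0.041 SE, limma adjusted p = 0.00043). The mutants also differed, by a log2 fold change of -0.28 ± 0.041 (SE) in OEA8_69 against OEA8_67 (limma adjusted p = 0.0039). Each of these calls was kept in all 16 alternative settings, and without OEA8_Ctrl replicate 3 the log2 fold changes against OEA8_Ctrl were -0.64 for OEA8_69 and -0.36 for OEA8_67.

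Col4a2, the gene for the α2 chain, had 144, 143 and 154 FPKM in OEA8_69, 174, 175 and 165 FPKM in OEA8_67, against 229, 217 and 215 FPKM in OEA8_Ctrl. Again the 3 groups stood apart in the same order. Against OEA8_Ctrl the log2 fold change was -0.58 ± 0.045 (SE, limma adjusted p = 5.7e-06) in OEA8_69 and -0.36 ± 0.045 (SE, limma adjusted p = 0.00048) in OEA8_67, falls of the mean by 33.3% in OEA8_69 and by 22.1% in OEA8_67. OEA8_69 was below OEA8_67 by a log2 fold change of -0.22 ± 0.045 (SE, limma adjusted p = 0.025), a call that was lost in 6 of 16 settings. Col4a2 followed Col4a1 from library to library. The ratio of Col4a2 to Col4a1 was 0.921, 0.90 and 0.949 in OEA8_69, 0.892, 0.896 and 0.866 in OEA8_67, and 0.913, 0.880 and 0.925 in OEA8_Ctrl. The OEA8_Ctrl ratios overlapped those of both mutants, while those of the mutants lay just apart. Across the 9 libraries the levels of both genes had a Pearson r of 0.989, a description of libraries that share their groups. Summed, Col4a1 and Col4a2 made up 38.7% to 39.7% of the FPKM of all 10 genes in OEA8_69, 42.5% to 43.0% in OEA8_67 and 48.1% to 50.5% in OEA8_Ctrl.

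Col4a5 (Entrez 12830, chrX:141475385-141689234, plus strand) encodes the α5 chain, which in other trimers takes the place of the α1 and α2 chains, as in the kidney glomerulus. It had 22.9, 23.0 and 22.8 FPKM in OEA8_69, 23.3, 23.7 and 23.2 FPKM in OEA8_67, against 25.8, 25.3 and 21.3 FPKM in OEA8_Ctrl. The lowest and the highest values all belonged to OEA8_Ctrl, whose range enclosed both mutants. The log2 fold change was -0.07 (95% interval -0.20 to 0.07, limma adjusted p = 0.54) in OEA8_69 and -0.04 (95% interval -0.17 to 0.10, limma adjusted p = 0.73) in OEA8_67. These intervals do not reach the changes of Col4a1 and Col4a2. Without OEA8_Ctrl replicate 3, Col4a5 was called lower in OEA8_69, at a log2 fold change of -0.15 (limma adjusted p = 0.020). The ratio of Col4a5 to Col4a1 was 0.144 ± 0.0032 in OEA8_69, 0.120 ± 0.0012 in OEA8_67 and 0.0990 ± 0.0064 in OEA8_Ctrl (SD, n = 3 each), and no library of a group reached the range of another.

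Col18a1 (Entrez 12822, chr10:77052178-77166548, minus strand) had 9.84, 10.2 and 10.7 FPKM in OEA8_69, 10.9, 11.6 and 10.3 FPKM in OEA8_67, against 13.2, 12.4 and 12.5 FPKM in OEA8_Ctrl. The mutants overlapped each other and both lay below every OEA8_Ctrl library. In OEA8_69 the log2 fold change was -0.29 ± 0.056 (SE, limma adjusted p = 0.0070), a call that held in all 16 settings. In OEA8_67 it was -0.20 ± 0.056 (SE, limma adjusted p = 0.048), and that call was lost in 12 of 16 settings although the direction never changed. The mutants were not told apart for Col18a1 (log2 fold change -0.08, 95% interval -0.21 to 0.04, limma adjusted p = 0.44). The deposited value is 1 per gene, so transcripts from the outer and the inner Col18a1 start cannot be separated. Over the 9 libraries Col18a1 correlated with Col4a2 at r = 0.961 and with Col4a1 at r = 0.926.

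**Figure D2:**
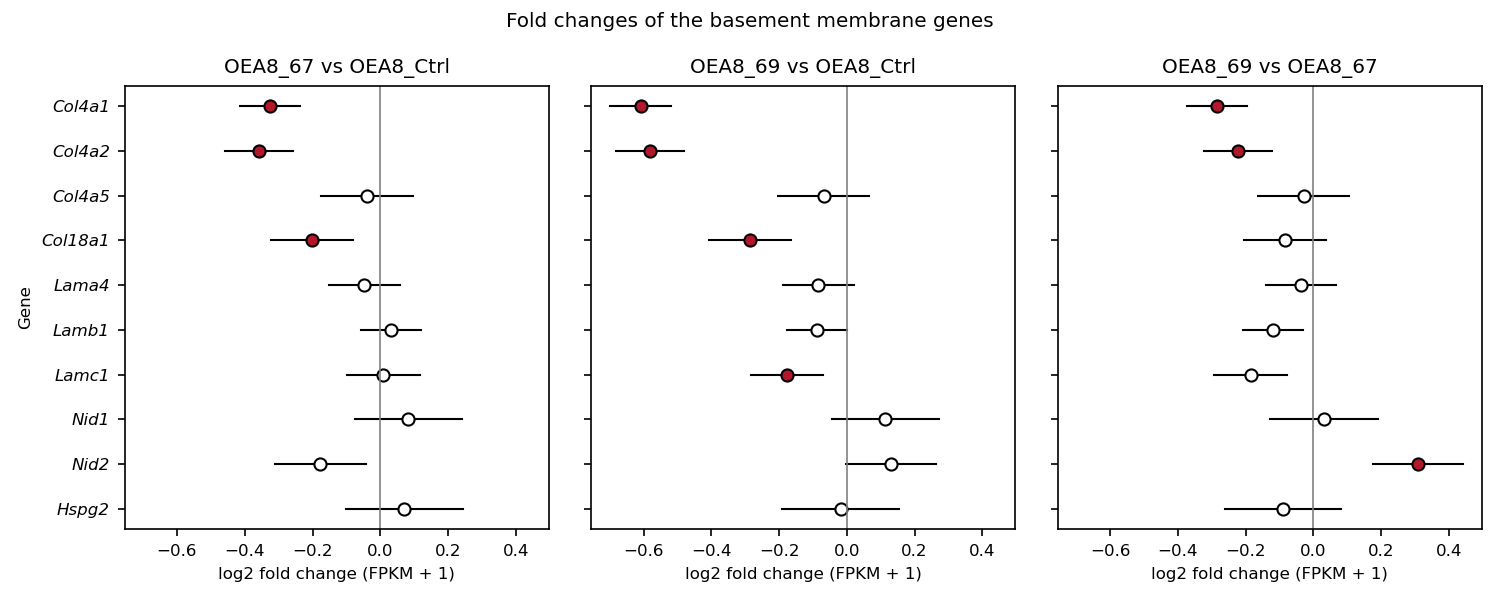
Log2 fold change on the FPKM + 1 scale (x axis) of the 10 basement membrane genes (y axis) in OEA8_67 against OEA8_Ctrl, OEA8_69 against OEA8_Ctrl and OEA8_69 against OEA8_67. Points are limma estimates, filled where the adjusted p is under 0.05, and lines are 95% intervals. Col4a1 and Col4a2 are filled on the left of 0 in all 3 panels, and Nid2 is the only gene filled on the right, in OEA8_69 against OEA8_67.

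Of the 3 laminin chains, Lamc1 was called in OEA8_69 against OEA8_Ctrl, and none was called in the other comparisons with all libraries. A laminin is a trimer of an α, a β and a γ chain, and Lama4, Lamb1 and Lamc1 encode the α4, β1 and γ1 chains of a laminin made by mesenchymal and endothelial cells. Lamc1 (Entrez 226519, chr1:153218922-153332786, minus strand) had 58.9, 58.2 and 61.8 FPKM in OEA8_69, 67.7, 70.1 and 66.1 FPKM in OEA8_67, against 69.3, 70.5 and 63.0 FPKM in OEA8_Ctrl. OEA8_69 lay below all other libraries, the nearest being OEA8_Ctrl replicate 3, while OEA8_67 fell within the range of OEA8_Ctrl. Lamc1 fell in OEA8_69 by 0.18 ± 0.049 (SE) on the log2 scale against OEA8_Ctrl (limma adjusted p = 0.043), a call that was lost in 12 of 16 settings. In OEA8_67 its log2 fold change was 0.0092 (95% interval -0.10 to 0.12, limma adjusted p = 0.93). Between OEA8_69 and OEA8_67 it was -0.19 ± 0.049 (SE, limma adjusted p = 0.066), just short of a call.

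Lamb1 (Entrez 16777, chr12:31265234-31329644, plus strand) had 92.0, 91.8 and 95.7 FPKM in OEA8_69, 102, 103 and 99.1 FPKM in OEA8_67, against 101, 102 and 94.8 FPKM in OEA8_Ctrl. OEA8_69 stood below OEA8_67 without overlap, but overlapped OEA8_Ctrl through its replicate 3. The log2 fold change was -0.09 in OEA8_69 against OEA8_Ctrl (95% interval -0.18 to 0.0019, limma adjusted p = 0.21) and -0.12 in OEA8_69 against OEA8_67 (95% interval -0.21 to -0.03, limma adjusted p = 0.14). Lamb1 and Lamc1 varied together over the 9 libraries (r = 0.978). The ratio of Lamb1 to Lamc1 was 1.56 ± 0.014 in OEA8_69, 1.49 ± 0.020 in OEA8_67 and 1.47 ± 0.034 in OEA8_Ctrl (SD, n = 3 each), with every OEA8_69 library above all others.

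Lama4 (Entrez 16775, chr10:38965515-39110188, plus strand) ranged from 63.1 to 67.9 FPKM in OEA8_69, from 66.3 to 68.3 FPKM in OEA8_67 and from 65.2 to 72.8 FPKM in OEA8_Ctrl. The 3 groups overlapped. Its log2 fold change was -0.08 in OEA8_69 (95% interval -0.19 to 0.02, limma adjusted p = 0.30) and -0.05 in OEA8_67 (95% interval -0.15 to 0.06, limma adjusted p = 0.58). Calls of the laminin genes depended on OEA8_Ctrl replicate 3. Without it, Lama4 (log2 fold change -0.13, limma adjusted p = 0.047) and Lamb1 (-0.12, limma adjusted p = 0.047) were called lower in OEA8_69 against OEA8_Ctrl beside Lamc1 and Col4a5, which brought the count to 7 of 10. Lamb1 (-0.12, limma adjusted p = 0.043) and Lamc1 (-0.19, limma adjusted p = 0.014) were then also called in OEA8_69 against OEA8_67. In that last comparison the values of both mutants do not change with the control library, which enters through the shared estimate of the spread and the filter. Relative to Lamc1, Col4a1 stood at 2.67 ± 0.050 in OEA8_69, 2.86 ± 0.052 in OEA8_67 and 3.60 ± 0.097 in OEA8_Ctrl (SD, n = 3 each), with no overlap between groups. These are genes of similar length, at 6615 and 7622 bases, and in this ratio OEA8_Ctrl replicate 3 (3.70) was not below the other OEA8_Ctrl libraries (3.61 and 3.50).

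The nidogens, which bridge laminin and type IV collagen, differed from each other. Nid2 (Entrez 18074, chr14:19751265-19811787, plus strand) had 21.4, 20.2 and 20.2 FPKM in OEA8_69, 16.4, 16.3 and 16.7 FPKM in OEA8_67, against 20.3, 19.1 and 16.8 FPKM in OEA8_Ctrl. All 3 OEA8_67 libraries lay below all others, by a small margin against OEA8_Ctrl replicate 3, while OEA8_69 and OEA8_Ctrl overlapped. Nid2 was the only one of the 10 genes that rose in any comparison, by 25.3% in OEA8_69 against OEA8_67 (log2 fold change 0.31 ± 0.061 SE, limma adjusted p = 0.021). That call was lost in 7 of 16 settings. Against OEA8_Ctrl the log2 fold change was 0.13 (95% interval -0.0016 to 0.26, limma adjusted p = 0.20) in OEA8_69 and -0.18 (95% interval -0.31 to -0.04, limma adjusted p = 0.10) in OEA8_67. Without OEA8_Ctrl replicate 3, Nid2 was called lower in OEA8_67, at -0.25 (limma adjusted p = 0.0089).

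Nid1 (Entrez 18073, chr13:13437551-13512269, plus strand) had 142, 134 and 142 FPKM in OEA8_69, 138, 141 and 129 FPKM in OEA8_67, against 138, 138 and 112 FPKM in OEA8_Ctrl. Apart from the low OEA8_Ctrl replicate 3, all libraries fell in a narrow band, and the groups overlapped. The log2 fold change was 0.11 in OEA8_69 (95% interval -0.04 to 0.27, limma adjusted p = 0.36) and 0.08 in OEA8_67 (95% interval -0.08 to 0.24, limma adjusted p = 0.51). The ratio of Nid1 to Nid2 was 6.77 ± 0.21 in OEA8_69, 8.30 ± 0.48 in OEA8_67 and 6.88 ± 0.30 in OEA8_Ctrl (SD, n = 3 each), so that the 3 OEA8_67 libraries had the highest ratios.

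Hspg2 (Entrez 15530, chr4:137468769-137570630, plus strand), the gene for the heparan sulfate proteoglycan perlecan and the longest of the 10 transcripts, had 60.1, 57.0 and 62.8 FPKM in OEA8_69, 62.4, 68.5 and 60.9 FPKM in OEA8_67, against 67.7, 62.5 and 52.9 FPKM in OEA8_Ctrl. OEA8_Ctrl contained the lowest value and overlapped both mutants. Its log2 fold change was -0.02 in OEA8_69 (95% interval -0.19 to 0.15, limma adjusted p = 0.91) and 0.07 in OEA8_67 (95% interval -0.10 to 0.24, limma adjusted p = 0.62). Both signs turned round when single libraries were left out, so no direction can be given for Hspg2.

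**Figure D3:**
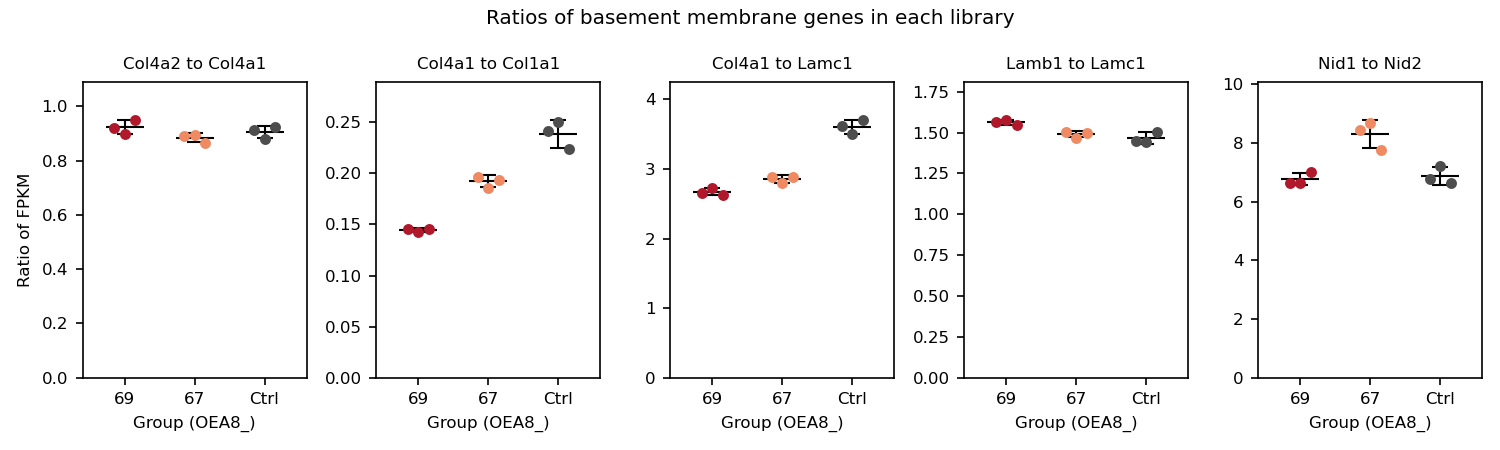
Ratio of the FPKM of a pair of genes (y axes, from 0) in each library, by group from OEA8_69 through OEA8_67 to OEA8_Ctrl (x axis). Points are libraries in replicate order, and black bars give the mean and SD of 3 libraries. Col4a2 to Col4a1 stays near 0.9, Col4a1 to Col1a1 and Col4a1 to Lamc1 are lowest in OEA8_69 and highest in OEA8_Ctrl, Lamb1 to Lamc1 is highest in OEA8_69, and Nid1 to Nid2 is highest in OEA8_67.

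The fibrillar collagens, which form the fibres of connective tissue outside the basement membrane, were examined beside the 10 genes. None of the 8 tested fibrillar chains was called by limma against OEA8_Ctrl in either mutant. At an unadjusted limma p under 0.05, 0 were lower and 4 higher in OEA8_69, and 2 were lower and 1 higher in OEA8_67. When OEA8_Ctrl replicate 3 was left out, limma called Col11a2 higher in OEA8_69 and Col3a1 lower in OEA8_67, 1 of 8 each. Col1a1, an α chain of type I collagen, averaged 1101 FPKM in OEA8_69, 1010 FPKM in OEA8_67 and 1021 FPKM in OEA8_Ctrl. The ratio of Col4a1 to Col1a1 was 0.146, 0.142 and 0.145 in OEA8_69, 0.197, 0.186 and 0.194 in OEA8_67, and 0.241, 0.251 and 0.224 in OEA8_Ctrl. The 3 groups did not overlap in this ratio. Col3a1, the chain of type III collagen, rose in OEA8_69 against OEA8_67 (log2 fold change 0.19 ± 0.039 SE, limma adjusted p = 0.030), the comparison in which Col4a1 and Col4a2 fell.

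Of 28 other basement membrane components 19 were tested. In OEA8_69 against OEA8_Ctrl 3 fell and 3 rose, in OEA8_67 against OEA8_Ctrl 2 fell and 2 rose, and in OEA8_69 against OEA8_67 1 fell and 1 rose. Of all tested genes 5.24% were called lower and 4.55% higher in OEA8_69 against OEA8_Ctrl. These shares were 4.66% and 3.21% in OEA8_67 against OEA8_Ctrl, and 1.27% and 1.89% in OEA8_69 against OEA8_67. Tinagl1, a secreted matrix protein that binds laminin and integrins, had 25.9, 25.8 and 25.2 FPKM in OEA8_69, 28.4, 30.6 and 28.2 FPKM in OEA8_67, against 61.4, 61.2 and 61.8 FPKM in OEA8_Ctrl. Both mutants lay far below OEA8_Ctrl, where replicate 3 was level with the others. The log2 fold change of Tinagl1 was -1.23 ± 0.042 (SE, limma adjusted p = 4.4e-09) in OEA8_69 and -1.06 ± 0.042 (SE, limma adjusted p = 2.2e-08) in OEA8_67, beyond that of any of the 10 genes, and it was also lower in OEA8_69 than in OEA8_67 (-0.17, limma adjusted p = 0.047). Sparc, which binds type IV collagen, fell by 0.25 on the log2 scale in OEA8_67 (limma adjusted p = 0.0057) and had a log2 fold change of -0.12 in OEA8_69 (limma adjusted p = 0.12). Fbln2, a fibulin, rose in both mutants, by 0.22 in OEA8_69 and 0.26 in OEA8_67 on the log2 scale. Fbln1 rose in OEA8_69 against OEA8_Ctrl (0.33) and against OEA8_67 (0.45). The laminin-related netrin Ntn1 rose in OEA8_67 (0.23), a call that was lost without OEA8_Ctrl replicate 3. Ntn4, at 0.47 to 1.45 FPKM, fell by 0.48 on the log2 scale in OEA8_69. Col4a6, the neighbour of Col4a5, was at 1.19 to 1.74 FPKM in the 9 libraries and was not called, although it was called lower in OEA8_67 without OEA8_Ctrl replicate 3. Leaving out that library gave 4 lower and 3 higher in OEA8_69 and 3 lower and 1 higher in OEA8_67, against OEA8_Ctrl. Of all tested genes 6.96% were then called lower and 7.92% higher in OEA8_69, and 4.1% lower and 3.5% higher in OEA8_67.

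**Figure D4:**
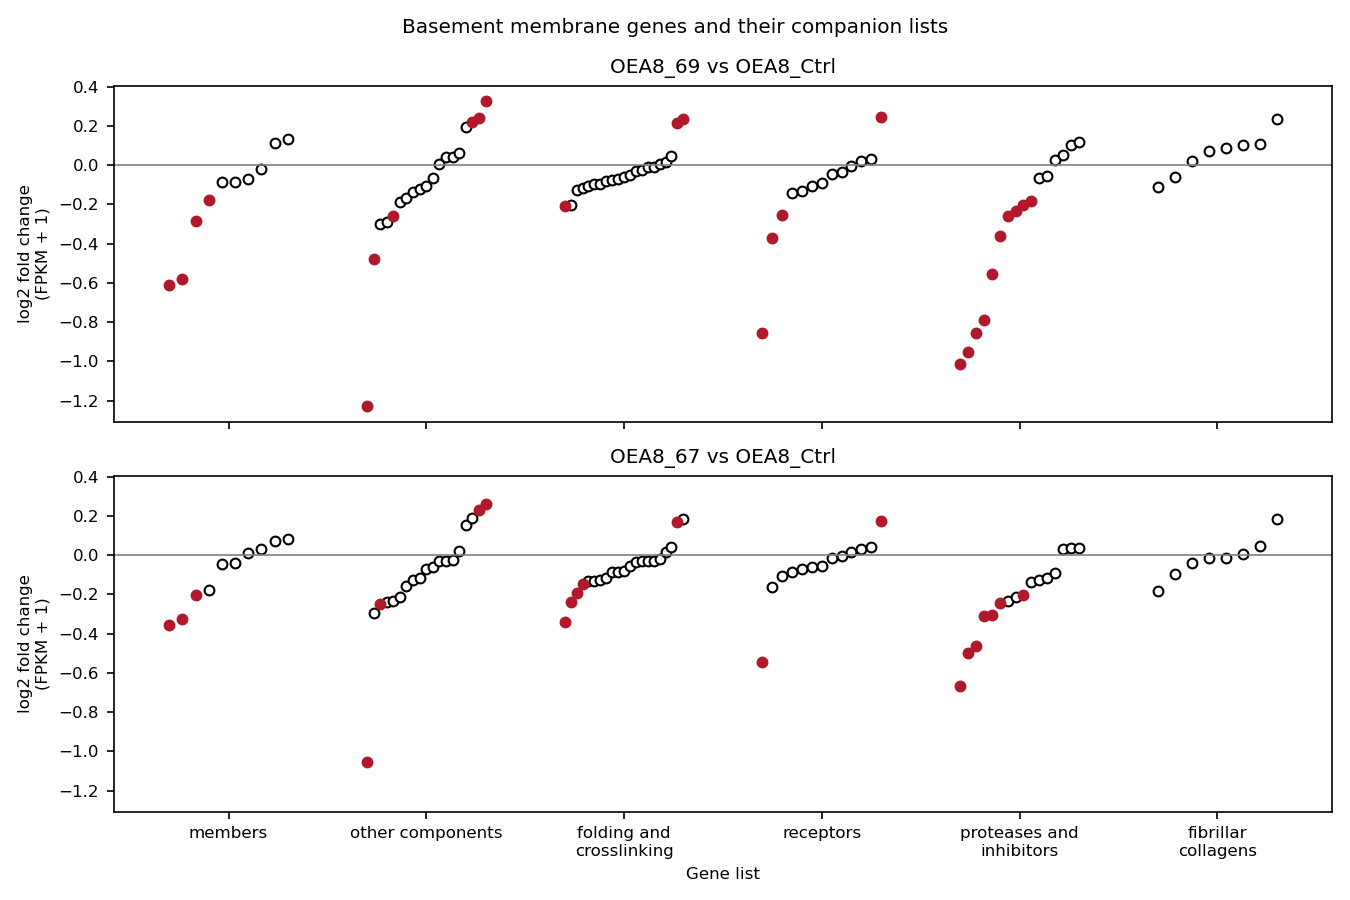
Log2 fold change on the FPKM + 1 scale (y axes) of the tested genes of the 10 basement membrane genes (members) and of 5 related lists (x axis), in OEA8_69 against OEA8_Ctrl above and OEA8_67 against OEA8_Ctrl below. Each point is a gene, sorted within its list and filled where the limma adjusted p is under 0.05. The fibrillar collagens have no filled point, and the filled points of the protease list all lie below 0.

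Among 21 genes for collagen folding, modification and crosslinking, all tested, 1 fell and 2 rose in OEA8_69 against OEA8_Ctrl, and 4 fell and 1 rose in OEA8_67. Over all tested genes 5.24% were called lower and 4.55% higher in OEA8_69, and 4.66% lower and 3.21% higher in OEA8_67. P4ha1 and P4ha3 encode catalytic subunits of the collagen prolyl 4-hydroxylases. P4ha1 fell by 0.21 in OEA8_69 and by 0.15 in OEA8_67 on the log2 scale, while P4ha3 rose by 0.24 in OEA8_69 and by 0.17 in OEA8_67. Lox, a lysyl oxidase that crosslinks collagen and elastin, rose in OEA8_69 (0.22). Its relative Loxl2 (-0.34), the lysyl hydroxylase gene Plod1 (-0.19) and the prolyl 3-hydroxylase gene P3h1 (-0.24) fell in OEA8_67. Pxdn, which encodes the peroxidase that crosslinks type IV collagen, and Serpinh1, the collagen chaperone, were not called and had log2 fold changes of 0.04 and 0.02 in OEA8_69 and of 0.04 and -0.12 in OEA8_67. In OEA8_69 against OEA8_67 limma called 0 of the 21, and 1 was lower and 4 higher at an unadjusted p under 0.05. P3h1 and Ppib were called higher in that comparison without OEA8_Ctrl replicate 3, and Loxl2 joined the genes that fell in OEA8_69 against OEA8_Ctrl.

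Of 15 receptors for basement membrane proteins 13 were tested, and 3 fell and 1 rose in OEA8_69 against OEA8_Ctrl, while 1 fell and 1 rose in OEA8_67. The shares of all tested genes were 5.24% lower and 4.55% higher in OEA8_69, and 4.66% lower and 3.21% higher in OEA8_67. Itga6, the α6 integrin subunit of laminin receptors, had 3.05, 3.09 and 3.10 FPKM in OEA8_69, 3.94, 4.29 and 3.96 FPKM in OEA8_67, against 6.79, 7.37 and 5.18 FPKM in OEA8_Ctrl. The groups did not overlap, and the log2 fold changes were -0.86 ± 0.095 (SE, limma adjusted p = 0.00011) in OEA8_69 and -0.55 ± 0.095 (SE, limma adjusted p = 0.0045) in OEA8_67. The other laminin-binding integrin subunits Itga7 (-0.37) and Itga3 (-0.26) fell in OEA8_69, and Itga3 was also lower there than in OEA8_67 (-0.20). Ddr1, a receptor tyrosine kinase that binds collagens including type IV, rose by 0.24 in OEA8_69 and by 0.17 in OEA8_67 on the log2 scale. Itgb1, the β1 subunit shared by many of these receptors, was not called. Without OEA8_Ctrl replicate 3, 5 receptors including Itgb1 were lower and 1 higher in OEA8_69 against OEA8_Ctrl, while OEA8_67 kept a count of 1 lower and 1 higher. The shares of all tested genes were then 6.96% lower and 7.92% higher in OEA8_69, and 4.1% lower and 3.5% higher in OEA8_67.

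Proteases and inhibitors acting on basement membrane formed the list with the most calls. Like the others, this list was chosen with earlier results of these data known. Of 16 tested genes 10 fell and 0 rose in OEA8_69 against OEA8_Ctrl, and 7 fell and 0 rose in OEA8_67. Of all tested genes 5.24% were called lower in OEA8_69 and 4.66% in OEA8_67. At an unadjusted limma p under 0.05, 2 were higher in OEA8_69 and 0 in OEA8_67. Leaving out OEA8_Ctrl replicate 3, these calls were 10 lower in OEA8_69 and 8 lower in OEA8_67. Of all tested genes 6.96% were then called lower in OEA8_69 and 4.1% in OEA8_67. Mmp3, stromelysin, which cleaves type IV collagen, laminin and nidogen, fell by 1.01 in OEA8_69 and by 0.31 in OEA8_67 on the log2 scale. The collagenase Mmp13 fell by 0.95 in OEA8_69 and by 0.47 in OEA8_67, and the gelatinase Mmp9, which degrades type IV collagen, by 0.79 in OEA8_69 and by 0.67 in OEA8_67. The heparanase gene Hpse fell by 0.55 in OEA8_69 and by 0.50 in OEA8_67, and Mmp10 fell by 0.86 in OEA8_69. Inhibitors were among the falls too. Timp1 was called lower in both mutants (log2 fold change -0.36 in OEA8_69 and -0.20 in OEA8_67), and Timp2 in OEA8_69 (-0.18). The most abundant of these enzymes, the gelatinase Mmp2, did not differ by call from OEA8_Ctrl in either mutant, but was higher in OEA8_69 than in OEA8_67 (0.23, limma adjusted p = 0.019), where Mmp3 (-0.70), Mmp13 (-0.49) and Mmp10 (-0.64) were lower.

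Because Col4a1 and Col4a2 are strongly expressed by endothelial cells, markers of that and other cell types were set beside them. The summed level of 13 endothelial markers was 8.36 to 10.2 FPKM in OEA8_69, 8.71 to 10.2 FPKM in OEA8_67 and 30.1 to 31.4 FPKM in OEA8_Ctrl, and none of the 13 was at 0 in all libraries. Only 3 of the 13 averaged 1 FPKM or more. Flt1, a VEGF receptor (log2 fold change -0.86 in OEA8_69 and -0.72 in OEA8_67), and Egfl7, a secreted endothelial factor (-0.60 in OEA8_69 and -0.73 in OEA8_67), were above the filter in each group and fell in both mutants. Sox18 and Robo4 passed the filter only through their OEA8_Ctrl level, without OEA8_Ctrl replicate 3 they no longer passed it, and no test is given for them. Cdh5, VE-cadherin, had 0.24, 0.47 and 0.49 FPKM in OEA8_69, 0.78, 0.88 and 0.73 FPKM in OEA8_67, against 12.0, 11.1 and 10.9 FPKM in OEA8_Ctrl. Cdh5 was also called lower in OEA8_69 than in OEA8_67 (log2 fold change -0.36, limma adjusted p = 0.037), the same order of groups as Col4a1, while the endothelial sums of OEA8_69 and OEA8_67 overlapped. That call compares low levels, a mean of 0.4 FPKM in OEA8_69, under the filter value of 0.5 FPKM, and of 0.80 FPKM in OEA8_67. The endothelial sum, Cdh5, Flt1 and Egfl7 were thus lower in both mutants, like Col4a1 and Col4a2, and their part in the result was not tested. Other markers were near 0 and did not pass the filter, and some of them were lower in both mutants. Pecam1 averaged 0.137 FPKM in OEA8_69, 0.107 FPKM in OEA8_67 and 0.643 FPKM in OEA8_Ctrl. In the same order Kdr averaged 0.04, 0.073 and 0.423 FPKM, Emcn 0.013, 0.027 and 0.127 FPKM, and Tie1 0, 0 and 0.063 FPKM. Tek, Vwf, Esam and Sox17 overlapped between each mutant and OEA8_Ctrl. Vwf averaged 0.087 FPKM in OEA8_69, 0.09 FPKM in OEA8_67 and 0.067 FPKM in OEA8_Ctrl, and Esam 0.073, 0.077 and 0.067 FPKM. Between the mutants Egfl7 was not called, at 5.38 FPKM in OEA8_69 and 4.84 FPKM in OEA8_67. The summed epithelial markers, none of them at 1 FPKM on average, were at 1.29 to 1.45 FPKM in OEA8_69, 0.79 to 1.73 FPKM in OEA8_67 and 0.52 to 1.56 FPKM in OEA8_Ctrl. Sums of the 12 pericyte and smooth muscle markers (1798 to 1918 FPKM in OEA8_69, 1893 to 2021 FPKM in OEA8_67 and 1699 to 2044 FPKM in OEA8_Ctrl) overlapped between all groups and consisted mostly of Acta2 (1275 to 1606 FPKM). In this list Tagln was called lower and Cspg4 higher in both mutants, but without OEA8_Ctrl replicate 3 only the Tagln call in OEA8_69 remained of these. Cnn1 was called higher in OEA8_67 against OEA8_Ctrl (log2 fold change 0.31), and without OEA8_Ctrl replicate 3 both Cnn1 and Acta2 were. In OEA8_69 against OEA8_67, Cnn1 (-0.49) and Mcam (-0.27) were called lower. The fibroblast markers summed to 7075 to 7235 FPKM in OEA8_69, 6686 to 6905 FPKM in OEA8_67 and 7218 to 7490 FPKM in OEA8_Ctrl, sums to which Vim, Col1a2, S100a4 and Col1a1 gave the most. Of the 15 fibroblast markers, 3 fell and 1 rose in OEA8_69 and 5 fell and 0 rose in OEA8_67 against OEA8_Ctrl, with Pdgfra, Dcn and Postn lower in both. Over all tested genes the shares were 5.24% lower and 4.55% higher in OEA8_69, and 4.66% lower and 3.21% higher in OEA8_67. At an unadjusted limma p under 0.05, 0 were higher in OEA8_67, and leaving out OEA8_Ctrl replicate 3 gave 5 lower and 1 higher in OEA8_69 and 7 lower in OEA8_67. The shares of all tested genes were then 6.96% lower and 7.92% higher in OEA8_69, and 4.1% lower in OEA8_67. The hematopoietic markers summed to 217 to 227 FPKM in OEA8_69, 207 to 218 FPKM in OEA8_67 and 320 to 342 FPKM in OEA8_Ctrl, sums to which Ly6a gave the most. Of the 5 tested, 2 were called lower (Cd34 and Ly6a) and 1 higher (Gata2) in each mutant against OEA8_Ctrl. In bulk RNA fewer cells of a type and less RNA per cell cannot be told apart.

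The genes outside the 10 whose log2 levels over the 9 libraries were most like those of Col4a1 were F2r (r = 0.993), Atp1b1 (0.992), Mtmr10 (0.992), Cadm1 (0.989) and Ccbe1 (0.987). F2r encodes a thrombin receptor, and Atp1b1 a subunit of the sodium pump. F2r had 65.3, 65.0 and 64.9 FPKM in OEA8_69, 74.2, 74.0 and 73.2 FPKM in OEA8_67, against 89.3, 87.9 and 81.3 FPKM in OEA8_Ctrl, the same order of groups as Col4a1. These correlations describe 9 libraries in 3 groups and were picked as the highest of all tested genes.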

How the data were processed

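Libraries from TRIzol-extracted RNA were read on a DNBSEQ instrument. The mm10 build, Bowtie2 2.2.5 and HISAT2 2.0.4 are listed in the submitters' processing notes. RSEM, named in the study's methods, has no version in the sources used here. Gene levels were deposited by the authors as FPKM, a unit in which a rise of abundant genes lowers all others. Group means in the table were used only as a check of the columns, and counts and depth were not used here.

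Groups and replicate numbers came from the labels. The 12012 of 19240 genes averaging 0.5 FPKM or more were tested on log2(FPKM + 1), a scale that understates changes of low genes, in 1 limma 3.58.1 model (R 4.3.3) with all 9 libraries, empirical Bayes moderation and a trend, and Benjamini-Hochberg adjustment over all tested genes. The procedure was tested on simulated data. Intervals are 95% and come from the moderated fit. Alternatives were quantile normalization, median-of-ratios scaling, other pseudocounts and filters, a model without the uncompared group, the replicate number as a block, and leaving out each library. Counts of related lists without OEA8_Ctrl replicate 3 were added after seeing the data.

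The members and 10 further gene lists were chosen with earlier results of these data known. Named besides the members are up to 4 called genes of each related list per comparison by smallest adjusted p, the 5 genes most correlated with Col4a1, and S100a8, with predicted and clone-named genes left out. Cdh5, Pxdn, Serpinh1, Col4a6, Itgb1, Col1a1, Col11a2, Ppib, Timp1, Timp2 and the cell type markers were named after their values were seen. Positions and exons come from GENCODE (GRCm38), and transcript lengths from the longest transcript (11718 tested genes matched). Figures were drawn in Python 3.11.15 with matplotlib 3.10.9.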

Additional observations from a re-analysis of the deposited data

How the results depend on the processing

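Col4a1 kept its calls in all 3 comparisons, and Col4a2 its calls against OEA8_Ctrl, under each of the 16 alternatives. Outside the libraries left out in turn, single members gave 198 unchanged verdicts, 10 lost calls, 1 gained call and 1 turned sign (Lamc1 in OEA8_67 against OEA8_Ctrl, -0.0096 under median-of-ratios scaling). With 1 library left out, 228 were unchanged, 27 calls were lost, 6 gained and 9 signs turned, all of uncalled values. Those members ranged from -0.040 to 0.040 (Lamc1), -0.12 to 0.0093 (Col4a5), -0.017 to 0.13 (Nid1) and -0.027 to 0.15 (Hspg2) in OEA8_67 against OEA8_Ctrl, from -0.12 to 0.058 (Hspg2) in OEA8_69 against OEA8_Ctrl, and from -0.0061 to 0.058 (Nid1) in OEA8_69 against OEA8_67.

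Genes called in OEA8_67 against OEA8_Ctrl numbered 946, or 607 when the model held these 2 groups alone, and 463 to 1043 with a library left out (463 without OEA8_67 replicate 2, 514 without OEA8_67 replicate 3, 608 without OEA8_67 replicate 1 and 579 without OEA8_Ctrl replicate 1). In OEA8_69 against OEA8_Ctrl they numbered 1176, with a range of 751 (without OEA8_69 replicate 1) to 1787 (without OEA8_Ctrl replicate 3), and called members ranged from 3 to 7. In OEA8_69 against OEA8_67 the 379 calls became 241 without a filter, 976 with only these 2 groups and 242 with the replicate block, and ranged from 123 (without OEA8_67 replicate 2) to 1037 (without OEA8_Ctrl replicate 3). Leaving out any other library of OEA8_69 or OEA8_67 gave 124 to 178. The 3 called members became 1 without a filter and ranged from 1 to 5, with 1 left (Col4a1) without OEA8_69 replicate 1 or 2 or OEA8_67 replicate 1 or 2.

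Median-of-ratios scaling moved the split of called genes from 560 lower and 386 higher to 652 and 292 in OEA8_67, and from 630 and 546 to 710 and 445 in OEA8_69, against OEA8_Ctrl. The same replicate numbers did not pair the libraries (same-number correlations of deviations between -0.25 and 0.15). With the number as a block, 718, 982 and 242 genes and 2, 3 and 2 members were called in OEA8_67 and OEA8_69 against OEA8_Ctrl and in OEA8_69 against OEA8_67.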
